A study of Mus musculus with 80 samples.

Results

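Chromosome 7 carried 532 of the 10785 barcoded reporters with 10 or more DNA counts in all 8 DNA libraries of their pool. The deposited table holds 540 chromosome 7 reporters among 10903, and the other 8 were under that minimum. Members were chosen by chromosome and DNA count alone, whereas the high and low domains were chosen on the RNA/DNA ratio without doxycycline, so levels there without doxycycline describe that choice. The lowest DNA counts just outside the minimum were 5, 6, 6, 7, 8, 8, 8 and 8, and just inside they were 10, 11, 12, 12 and 13.

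The host cells were EBRTcH3, a mouse embryonic stem cell line in which the endogenous ROSA26 promoter drives the tetracycline-controlled transactivator (tTA). Reporters were inserted by the piggyBac transposon, and every group carries them, grown with leukemia inhibitory factor, PD0325901 and CHIR99021. There are 4 pools (A to D) of sorted cells low in eGFP, each split into 2 cultures, and each culture received doxycycline (dox) at 0, 0.01, 0.1 or 100 ng/ml for 72 h. RNA and DNA barcodes were counted in all of them, which gives 64 libraries. The titles name a tet-Off reporter, while the growth and treatment protocols also mention a PGK promoter; the titles were followed. Because both cultures of a pool descend from the same cells and are technical replicates per the labels, p-values measure the spread between such cultures.

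In a tet-Off system, tTA binds operator sequences at the reporter and recruits the transcription machinery. Doxycycline binds tTA and releases it from the operators, so the reporter loses its activator. In the TRIP assay, which reads many integrated reporters in parallel, all reporters share 1 design and differ in their barcode and in where they landed, and a pool is read by counting barcodes in RNA and in genomic DNA. The RNA/DNA ratio of a barcode is then the expression of 1 integration site per integrated copy.

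Reporters are named here by pool and mm9 position, so that D:3211834 is the pool D integration at chr7:3211834. The barcodes below are those of the sites on which the results turn: 4 proximal sites that rose, 2 pairs of neighbours in different pools, further sites that rose (D:30200390, with the largest fitted rise, C:97122269 and D:134373802), the largest fall and the lowest site. A barcode is an arbitrary tag with no base of special meaning, so none is in capitals.
C:3191893: cctggtaatctcttcc
D:3211834: ttgatatgaacgcaca
C:3222037: accttagctaccatac
C:3530335: aagtaaccaccaaact
D:30200390: ttaccgcagaactcta
C:87332103: tttacaatagacctgc
D:87332260: taacggtctgttgcac
C:97122269: ggtcatcatgatattc
A:116769840: tgtaatataattgagg
B:134249535: cacggtgtgtctacac
C:134249834: attcataacctggtga
D:134373802: acactacaagggtctg
A:144770516: tgagggattgatggac

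Pools A, B, C and D held 111, 117, 161 and 143 of the members, with 266 on each strand. They spanned chr7:3191893-152320465 with a median gap of 119 kb, and the largest gap, 7.81 Mb, ran from 38953322 to 46759322. No position was shared, and 7 pairs were less than 1 kb apart. RNA libraries held 1395690 to 1840870 counts at dox 0 and 729552 to 1355706 at dox 100. The median member had 243 to 456 RNA counts per library at dox 0 and 0 to 24 at dox 100, beside 237 to 512 DNA counts at dox 100. No library matched its replicate within sampling noise. Genes around the sites were not analysed here.

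Levels are log2 ratios of RNA to DNA, each count (with 1 added) taken as a share of its library, averaged over the 2 cultures and set to a mean of 0 over all reporters of the pool at that dose. A level therefore gives the standing of a site within its pool and dose, not an absolute amount of RNA. At dox 100 a site without RNA counts takes a level set by its DNA count alone. The level of a single chromosome 7 site had an SE of 0.46 at dox 0 and of 1.49 at dox 100, from the spread between cultures. The Pearson r between the 2 cultures over the 532 sites was 0.91 at dox 0 and 0.731 at dox 100; sites of 1 library share its depth, and r is a description.

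Without doxycycline, chromosome 7 sites had a median level of 0.55, against 0.16 over all reporters. The median was 0.43 in pool A, 0.43 in B, 0.79 in C and 0.36 in D, above the median of all reporters of the same pool in each (0.20, 0.13, 0.15 and 0.15). The SD of the 4 chromosome 7 medians was 0.20. The middle 50% of sites ran from −0.92 to 1.88, and single sites from −11.43 to 6.25. At dox 0, 510 sites (95.9%) had 10 or more RNA counts in both libraries, close to the 95.6% of all reporters, and 0 lacked RNA in both, beside 0.278%.

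Along the chromosome, window medians differed at dox 0. In windows of 5 Mb with 10 or more sites, a window was called high where its median at dox 0 exceeded 1.46, the 75th percentile of all reporters, and low where it was under −1.30, the 25th percentile, with neighbouring windows of 1 kind joined. Of 31 windows, 24 had enough sites (493 members), 4 were high and 1 was low. They formed 2 high domains at the proximal end, the first at chr7:1-5000000 (20 sites) and the second at chr7:20000001-35000000 (61 sites), and 1 low domain at chr7:75000001-80000000 (11 sites). The lowest median of a high window was 2.02 and the next window below the threshold stood at 1.34. The low window stood at −2.34 and the next above it at −0.96.

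**Figure D1:**
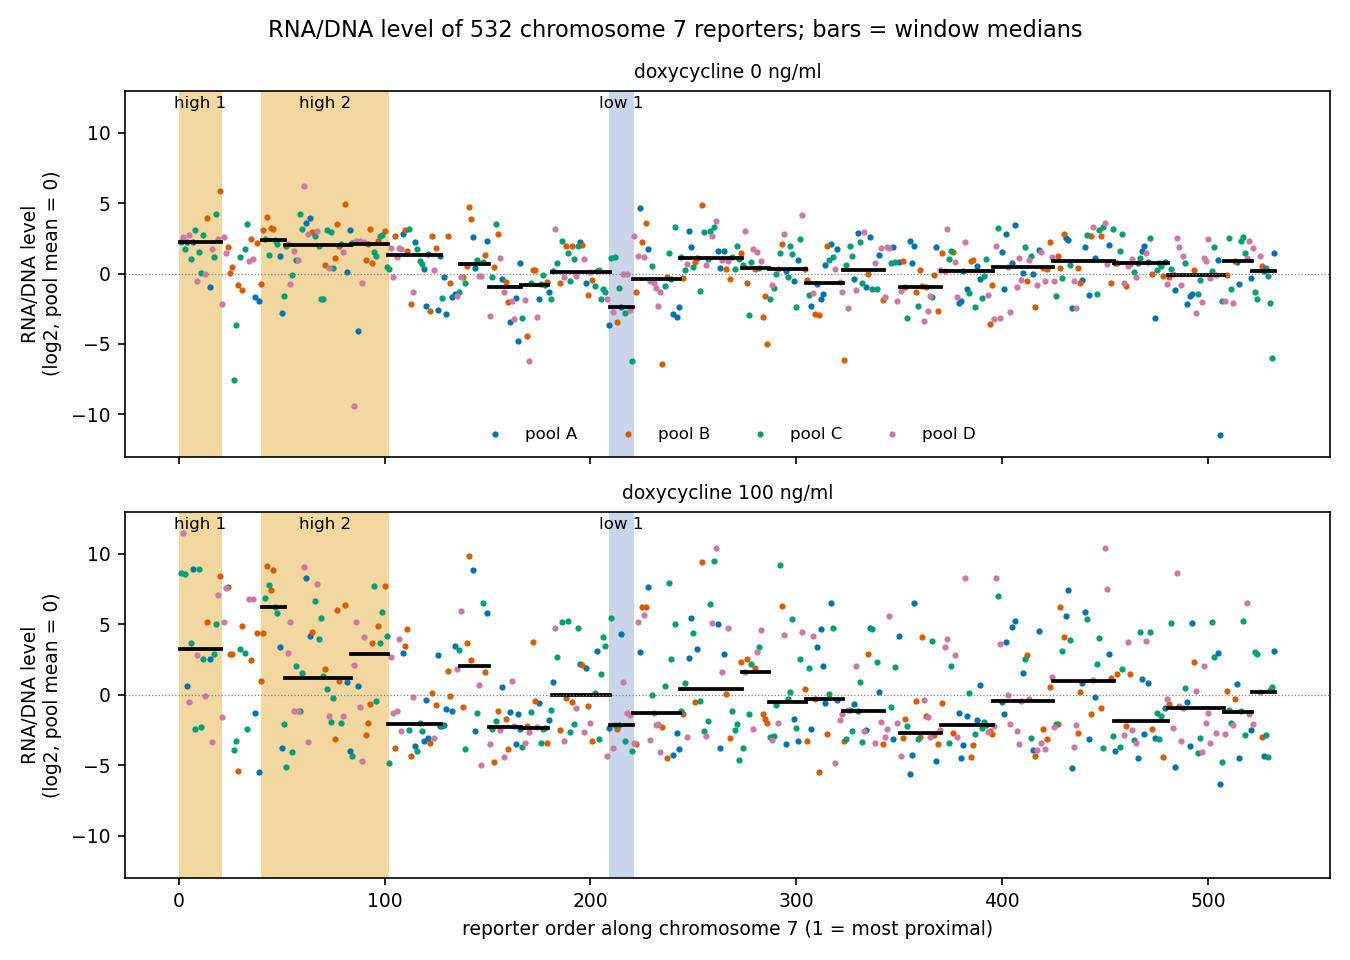
Each point is 1 of the 532 sites, in order along chromosome 7, with its level (log2 RNA/DNA, pool mean 0) at dox 0 above and dox 100 below; colours are pools, black bars are medians of 5 Mb windows with 10 or more sites, and shading marks the domains. The high domains lie at the left with window medians of 2.02 to 2.38 at dox 0, and the spread between sites is wider at dox 100.

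The first high domain had a median of 2.22 at dox 0, with sites from −0.92 to 5.86. Its pool medians were 2.24 (A, 3 sites), 4.92 (B, 2 sites), 1.75 (C, 9 sites) and 2.09 (D, 6 sites), so all pools lay above 1.46. The second high domain had a median of 2.11, with sites from −9.37 to 6.25 and pool medians of 1.25 (A, 7 sites), 2.97 (B, 16), 2.02 (C, 24) and 1.85 (D, 14). Pool A alone lay under the threshold there. The highest and the second lowest site of the whole chromosome, D:26034775 at 6.25 ± 0.73 (SD, n = 2 cultures) and D:30200390 at −9.37 ± 2.02 (SD, n = 2), both lie in the second domain and in the same pool, so a high window still held sites of very different level.

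Since the domains were chosen on these levels, each pair of pools was also read in windows chosen in the other pair, with 5 or more sites. Windows chosen as high in pools C and D were exactly the 4 of the domains. Read in pools A and B, they had medians of 2.26, 3.13, 3.02 and 2.11 in order of position, where all reporters of those pools had 0.16. Pools A and B chose the same 4 windows and 2 more, chr7:35000001-40000000 and chr7:50000001-55000000. In pools C and D the 4 shared windows had medians of 1.76, 2.09, 1.95 and 2.14, and the 2 extra ones 1.05 and −0.19, beside 0.15 over all reporters. Windows chosen in both pairs are high in each by that rule. Of the windows chosen in pools A and B, 4 lay above 1.46 in pools C and D and 2 did not. All 4 chosen in pools C and D lay above it in pools A and B together. In pool A alone their medians were 2.24 (3 sites), −0.78 (2 sites), 3.37 (4 sites) and −4.05 (1 site) in order of position. These values are a description with no test. Without pool A, B or C the first of the 3 windows of the second domain had too few sites, and the domain began at 25000001; without pool A it ended at 40000000.

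The low domain could not be read in this way, since with 1 site in pool A and 1 in pool B it was under the minimum of 5 in that pair. Pools C and D did not choose it. Pools A and B chose 2 other low windows, chr7:90000001-95000000 and chr7:140000001-145000000, which had medians of 0.86 and 0.19 in pools C and D. Low windows in pools C and D were chr7:60000001-65000000 and chr7:115000001-120000000, with medians of −0.59 and 0.09 in pools A and B. The single sites of the low domain in pools A and B stood at −2.34 and −3.44, and the 5 of pool C and 4 of pool D had medians of −1.04 and −1.31. Without pool D no low domain was found, without pool C it lay at chr7:55000001-60000000 instead, and a DNA minimum of 100 left none. Windows shifted by 2.5 Mb put the only low domain at chr7:57500001-62500000.

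Low sites had little RNA beside ample DNA. A:144770516 had 1 and 0 RNA counts at dox 0 beside 6059 and 6873 DNA counts, the lowest level of the chromosome at −11.43 ± 0.96 (SD, n = 2). C:11698084 had 2 and 0 RNA counts beside 397 and 473 DNA counts, B:82046452 had 2 and 2 beside 406 and 415, and C:79808717, in the low domain, had 7 and 1 beside 453 and 332. At such counts the level is set by depth. The other named sites of the low domain, B:77146190 and C:78186232, had 3 and 11, and 40 and 27 RNA counts.

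The highest sites at dox 0 stood in and outside the domains. After D:26034775, with 5246 and 5694 RNA counts beside 127 and 62 DNA counts, came B:4971289 at 5.86 ± 1.75 (SD, n = 2) in the first domain, with 3779 and 4087 RNA counts beside 248 and 48 DNA counts. B:29410639 in the second domain followed at 4.93 ± 0.79, then B:86803859 at 4.85 ± 0.21 and B:51606742 at 4.74 ± 0.53 outside the domains (SD, n = 2 each). D:26034775 and B:4971289 did not differ beyond the spread between cultures, nor did the last 3 among themselves. C:25732143 (4.25) was the third of the second domain, and C:4739913 (4.26) and B:4074935 (3.98) followed in the first.

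At dox 0.01 the chromosome 7 median level was 0.55, as at dox 0, and the edgeR quasi-likelihood test called 0 of 532 sites at an adjusted p under 0.05, as against 0% of all reporters lower and 0.0185% higher. An unadjusted p under 0.05 was reached by 22 of the 532 sites and by 532 of all 10785 reporters, so the share was not raised on chromosome 7. DESeq2's Wald test called 1 lower and 2 higher. In both libraries, 486 sites (91.4%, beside 90.3% of all reporters) had 10 or more RNA counts, and 2 sites (0.376%, beside 0.658%) had none. Domain medians were 2.05 and 2.35 in the high domains and −2.83 in the low domain.

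At dox 0.1 the edgeR test called 95 chromosome 7 sites lower (17.9%, beside 19.8% of all reporters) and 56 higher (10.5%, beside 9.07%). These shares are near the background, and the median fitted log2 change was −0.74 on chromosome 7 and −0.80 over all reporters. Lower and higher are relative to the other reporters of the library, since libraries are scaled to each other. With DESeq2's size factors the same test called 160 lower and 24 higher, and with library totals 182 and 21, and the 95 lower calls were kept in both fits, while their higher calls were all among the 56. Leaving out dox 0 replicate 1 gave 52 lower and 33 higher, and leaving out dox 0 replicate 2 gave 56 and 31. At this dose 355 sites (66.7%) had 10 or more RNA counts in both libraries, beside 59.8% of all reporters, and 88 (16.5%) had none, beside 18.5%.

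Several sites had lost all RNA counts at 0.1 ng/ml already. C:3425977 in the first high domain went from 371 and 484 RNA counts to 0 and 0, at least 163-fold lower (edgeR adjusted p = 0.000167). D:4421765 in the same domain went from 547 and 693 to 0 and 0, at least 111-fold lower (edgeR adjusted p = 0.00023). B:131978639 went from 115 and 121 to 0 and 0, at least 62-fold lower (edgeR adjusted p = 0.00279). These 3 are the largest falls at this dose by the fitted value, and all had 0 and 0 RNA counts at dox 100. The largest rises at this dose with RNA in both cultures were those of D:30200390 and D:3211834, described with dox 100. A:144770516 was also called higher, with 27 and 0 RNA counts at dox 0.1 after 1 and 0 (log2 change 5.57 ± 1.72, edgeR adjusted p = 0.0312), on culture 1 alone. Without dox 0.1 replicate 1 its change was −1.74 (edgeR adjusted p = 0.694). The call was also lost with library totals and DESeq2 size factors, with the DNA counts as an offset, and without dox 0 replicate 1 or 2. Bounds are against a floor of 3 RNA counts over both cultures and hold for read counts.

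At dox 100, 248 chromosome 7 sites were called lower (46.6%, beside 50.4% of all reporters) and 57 higher (10.7%, beside 10.9%). The median fitted log2 change was −2.71 on chromosome 7 and −4.12 over all reporters. Pools A, B, C and D gave 49, 50, 78 and 71 lower and 10, 10, 18 and 19 higher calls. RNA counts were 0 in both dox 100 libraries for 205 of the sites called lower. With DESeq2's size factors the calls were 286 lower and 39 higher and with library totals 310 and 29, so that the share of higher among all calls was 18.7%, 12% and 8.55% under the 3 scalings. The 248 lower calls were lower under both other scalings, and the 39 and 29 higher calls were all among the 57. These scalings moved the median log2 change of all reporters from −4.12 to −4.83 and −5.15. Leaving out dox 100 replicate 1 moved the chromosome 7 median change to −6.67 (all reporters −7.36) with 318 lower and 48 higher, and leaving out dox 100 replicate 2 moved it to −5.16 (all reporters −6.36) with 292 and 52. Since all comparisons share the dox 0 libraries, calls at 0.1 and 100 ng/ml are not independent: 85 sites were lower at both doses, 35 were higher at both, 3 were higher at 0.1 and lower at 100, and 0 were lower at 0.1 and higher at 100. Over all 10785 reporters these counts were 1965, 739, 44 and 5, so the overlap is not read as particular to chromosome 7.

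Of the 532 sites, 178 (33.5%) kept RNA at dox 100, that is 10 or more RNA counts in both libraries, beside 29.1% of all reporters. The share was 32.4% in pool A, 35% in B, 37.3% in C and 28.7% in D, against 30.0%, 31.3%, 28.3% and 27.6% of all reporters of the same pool. It was thus higher on chromosome 7 in every pool, by little in A and D. No RNA count in either library was found for 228 sites (42.9%, beside 48.4%), 117 had RNA in 1 library alone with a median count of 62 there, and 9 had RNA in both but under 10 in one. With culture 1 alone the share with 10 or more counts was 47.4% (42.4% of all reporters) and with culture 2 alone 41.2% (36.4%).

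Kept sites differed in how their RNA/DNA changed. Of the 178, 56 were called higher, 20 lower and 102 had no call. Over all reporters, 1161 of the 3137 kept ones were called higher, so higher calls were not more frequent among the kept sites of chromosome 7. In both dox 100 libraries, 115 had 100 or more RNA counts and 38 had 1000 or more. A further 182 sites (34.2%, beside 32% of all reporters) had 10 or more RNA counts in both libraries at dox 0.1 and no longer at dox 100, and 172 (32.3%, beside 38.9%) were already short of that at dox 0.1. The median dox 0 level was 1.57 in kept sites, 0.94 in those kept to 0.1 ng/ml and −1.29 in the rest. In 4 groups of 133 sites ordered by dox 0 level, 15.8%, 19.5%, 39.8% and 58.6% were kept, from the lowest group to the highest. A site of higher level needs a larger fall to lose its counts, and that part in the order was not tested. Low sites were among the kept ones too: 12 of the 21 kept sites of the lowest group were called higher. These sites were picked by a low dox 0 level and by RNA at dox 100, which favours a higher call, so the count is a description.

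**Figure D2:**
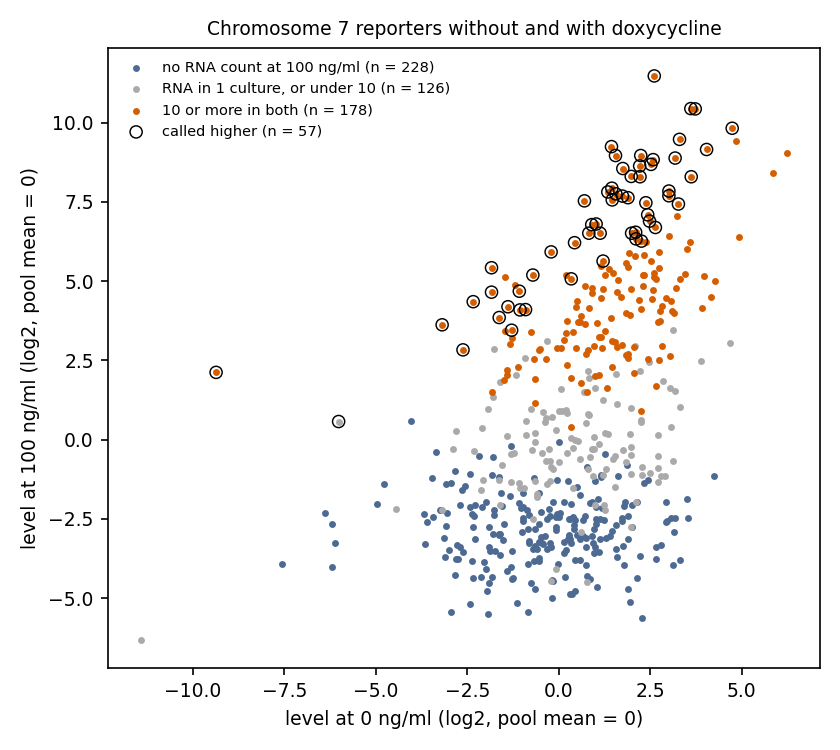
Each point is 1 chromosome 7 site, with its level at dox 0 on the horizontal axis and at dox 100 on the vertical axis (both log2 RNA/DNA, pool mean 0); colours give the RNA counts at dox 100 and rings the 57 sites called higher. Sites with no count (228) fill a band below 1 at almost every dox 0 level, and most of the 178 kept sites lie above it.

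The high domains held many of the kept sites. In the first, 13 of 20 sites (65%) were kept, 3 had RNA in 1 library alone and 4 had none. Its level at dox 100 had a median of 3.28, with pool medians of 2.56 (A), 6.79 (B), 3.67 (C) and 1.38 (D). In the second, 32 of 61 sites (52.5%) were kept and 15 had none, with a median level of 2.12 and pool medians of 0.89 (A), 4.42 (B), 1.77 (C) and 0.63 (D). Kept shares by pool were 42.9%, 68.8%, 50.0% and 42.9% there, above that of all reporters in each. The domains were chosen for a high dox 0 level, and of the 133 chromosome 7 sites highest at dox 0, 58.6% were kept. The shares in the domains are thus a description. On chromosome 7 outside the domains, 131 of 440 sites (29.8%) were kept, near the background of 29.1%.

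Calls against dox 0 in the domains start from the levels that chose them and are a description. In the first domain 6 sites were higher and 5 lower at dox 100, and in the second 13 were higher and 24 lower. That is 30% higher and 25% lower in the first and 21.3% and 39.3% in the second, beside 10.9% and 50.4% of all reporters. With library totals the counts were 5 higher and 9 lower, and 5 and 32. The median fitted log2 change was −0.58 and −1.18, less negative than the −3.05 outside the domains. The first domain took 0.453% ± 0.280 (SD over 4 pools) of RNA counts at dox 0 and 1.66% ± 1.76 at dox 100, at 0.177% and 0.195% of DNA counts, a difference within the SD over pools at dox 100. Its RNA share was higher at dox 100 in both libraries of pools A, C and D and lower in pool B, where it went from 0.464% and 0.470% to 0.230% and 0.164%. A few sites carried it at dox 100: D:3211834 alone took 3.72% and 3.77% of the RNA counts of pool D, where the domain took 3.86% and 3.99%. In pool C, where the domain took 2.16% and 2.19%, C:3530335 took 1.11% and 1.04%, C:3222037 0.613% and 0.543% and C:3191893 0.316% and 0.5%. The second domain took a mean of 1.24% ± 0.709 of RNA counts at dox 0 and 1.20% ± 1.33 at dox 100 (SD over 4 pools), over pools that moved in opposite directions. Its share fell from 0.454% and 0.476% to 0.151% and 0.099% in pool A and from 0.911% and 0.910% to 0.278% and 0.335% in pool D. It was higher at dox 100 in pool B (2.10% and 2.11%, then 3.19% and 2.85%), and in pool C the libraries of both doses overlapped (1.47% and 1.46%, then 1.19% and 1.48%).

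**Figure D3:**
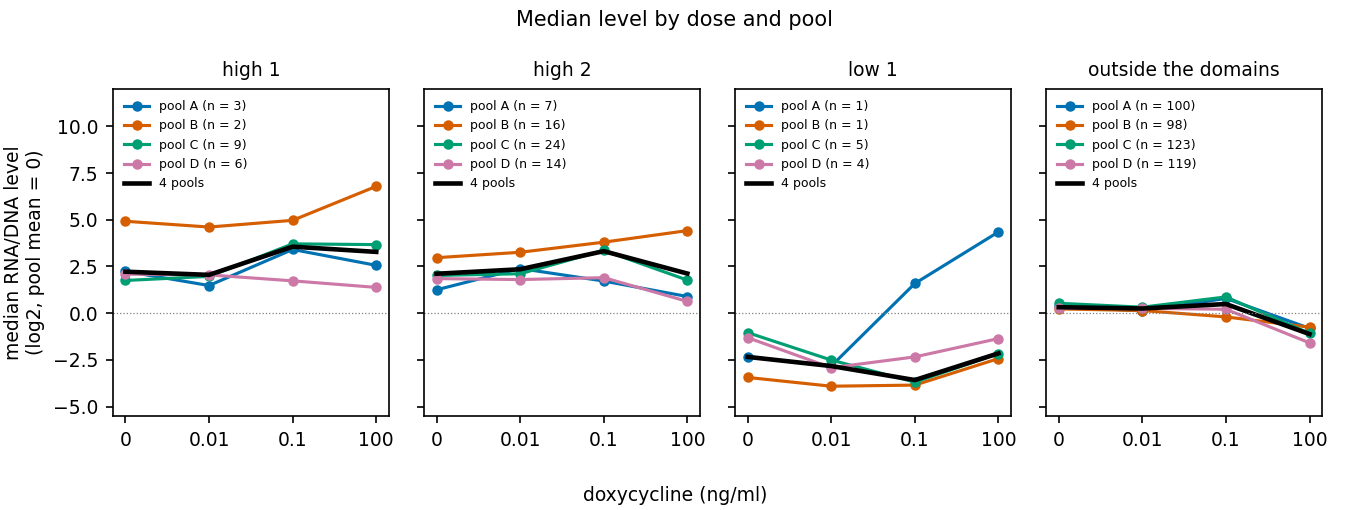
Median level (log2 RNA/DNA, pool mean 0) of the sites of each domain, and of chromosome 7 outside the domains, at the 4 doses; coloured lines are pools with their number of sites and the black line is the median over the sites of the 4 pools. The high domains stay above 0 in all pools and doses, and in the low domain pool A, with 1 site, departs from the others at 0.1 and 100 ng/ml.

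Windows within the second domain differed in their kept and called sites, to be read beside 29.1% kept, 10.9% higher and 50.4% lower over all reporters. In chr7:20000001-25000000, 9 of 11 sites were kept, 5 were higher and 2 lower (2 and 4 with library totals), and none belonged to pool D. The 9 kept sites, with all 5 higher ones, lay between 20251240 and 20514475. The 2 lower sites, A:24204389 and C:24634697, had levels of −2.80 and −1.56 at dox 0 and no RNA count at dox 100. No other site lay in that window. In chr7:25000001-30000000, 13 of 32 were kept, with 5 higher and 14 lower. In chr7:30000001-35000000, 10 of 18 were kept, with 3 higher and 8 lower. The window that follows, chr7:35000001-40000000, was just under the high threshold at dox 0 and had few kept sites, 5 of 26. No count was found for 14 (53.8%), near the 48.4% of all reporters. In this window 16 were lower and 1 was higher (21 and 0 with library totals). Its share of RNA counts went from 0.309% ± 0.0663 (SD over 4 pools) at dox 0 to 0.0223% ± 0.0162 at dox 100, lower in every pool, while its DNA share was 0.249% and 0.245%. This window was singled out after its values were seen, and it is not alone. In chr7:135000001-140000000, 5 of 26 sites were also kept, with 16 lower and 0 higher. Kept shares were 15% in chr7:115000001-120000000, 16% in chr7:120000001-125000000, 14.3% in chr7:145000001-150000000 and 18.2% in chr7:150000001-155000000.

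Because the windows differ in dox 0 level, sites with a dox 0 level of 1 to 3 were compared as well, a range chosen after the values were seen. Among these, 9 of 12 were kept in the first domain, 14 of 27 in the second and 4 of 13 in chr7:35000001-40000000, beside 86 of 169 (50.9%) on the whole of chromosome 7 and 46.8% on the other chromosomes. The 14 of 27 in the second domain (51.9%) joined 5 of 5 in chr7:20000001-25000000, 3 of 12 in chr7:25000001-30000000 and 6 of 10 in chr7:30000001-35000000. Levels were not equal within the range, with a median of 2.13 in the second domain and 1.81 on the other chromosomes. The sets are too small for more than a description.

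A stretch with almost no kept site was chr7:55000001-65000000, also singled out after its values were seen. Of 29 sites there, 1 was kept, 22 had no count in either library, 20 were lower and 0 were higher, and the same test on library totals gave 22 and 0. In percent, 3.45% were kept, 75.9% had no count and 69.0% were lower, beside 29.1%, 48.4% and 50.4% of all reporters. Its dox 0 median was −0.81, above that of the low domain. The low domain itself kept 2 of 11 sites, with 8 without counts, 4 lower and 1 higher. Its 1 site in pool A was that higher one, a call lost with library totals (7 lower and 0 higher) and without dox 0 replicate 1 or dox 100 replicate 2.

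**Figure D4:**
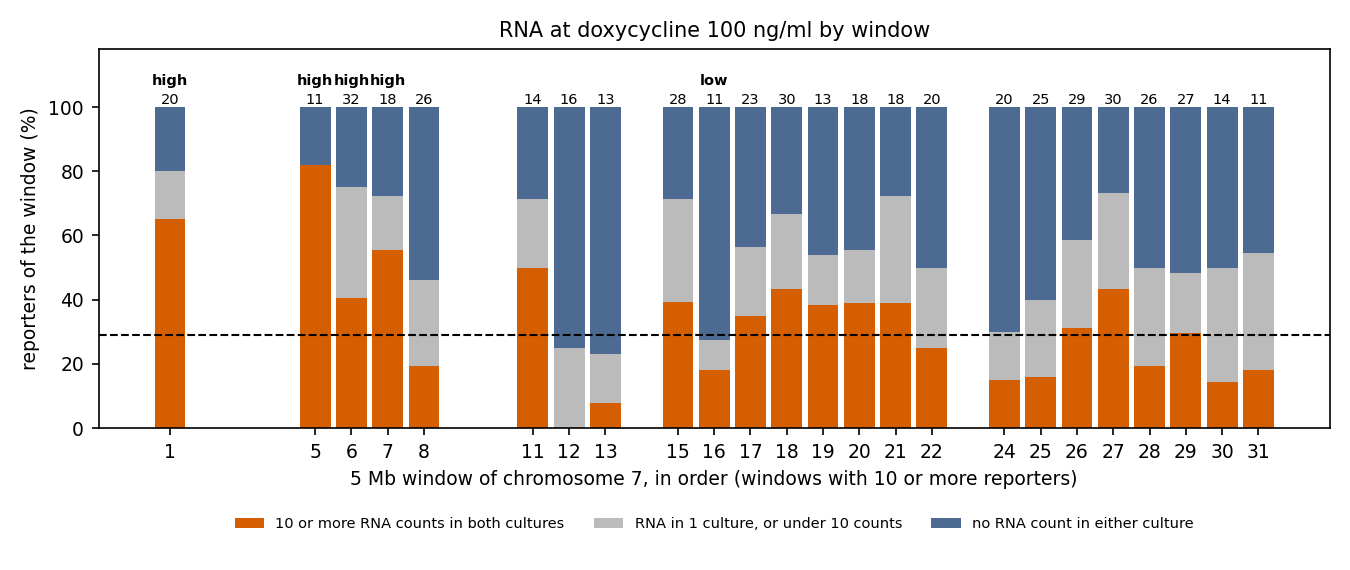
Share of sites (percent) in 3 classes of RNA at dox 100, for the 24 windows of 5 Mb with 10 or more sites in order along chromosome 7; the number of sites stands above each bar with the domain kind, and the dashed line marks the 29.1% of all reporters that were kept. Window 5 reaches 81.8%, windows 8 and 28 stand at 19.2%, and windows 12 and 13 (0 of 16 and 1 of 13) are the lowest.

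The proximal end holds a chain of 6 sites with gaps of at most 50 kb, at chr7:3191893-3296112 and from pools A, C and D. All had dox 0 levels from 1.04 to 2.72. D:3211834 had RNA counts of 3355 and 3464 without dox, 6220 and 4157 with 0.01 ng/ml, 22969 and 17515 with 0.1 ng/ml and 47439 and 46785 with 100 ng/ml, with 351 and 734 DNA counts at the last dose. Both dox 100 values lie above all others, and the site took 3.72% and 3.77% of all RNA counts of those libraries, after 0.212% and 0.216% at dox 0. Its fitted log2 change was 5.98 ± 0.51 (edgeR adjusted p = 5.11e-06). Here and elsewhere the ± of a fitted change is the absolute log2 change over the root of the F value of its test, an approximate SE. Its level at dox 100, 11.47 ± 0.34 (SD, n = 2), was the highest of the chromosome. Next came D:134373802 (10.44), D:87332260 (10.43), B:51606742 (9.82), C:87332103 (9.47), B:86803859 (9.41), C:97122269 (9.24), B:20284992 (9.15), D:26034775 (9.04) and C:3530335 (8.96), most of them neighbours in rank that do not differ beyond the spread between cultures.

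Its neighbours of pool C rose too. C:3191893 went from 930 and 827 RNA counts to 2976 and 4364 (log2 change 3.59 ± 0.41, edgeR adjusted p = 2.32e-05). C:3222037 went from 916 and 951 to 5765 and 4738 (3.98 ± 0.44, edgeR adjusted p = 1.95e-05), with 3.17 and 2.96 in the same 2 settings. At either site the RNA counts of dox 0 and dox 100 do not overlap. The 3 remaining sites of the chain had no call: C:3296112 went from 1521 and 1957 RNA counts to 566 and 547, and A:3271956 and D:3280444 had RNA at dox 100 in culture 2 alone (190 and 127 counts). The chain thus included, within 104219 bp, 2 pool D sites of which 1 rose most strongly by count and the other had RNA in 1 culture alone.

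Further rises stood inside and outside the domains. C:3530335, in the first domain, had RNA counts of 999 and 1144, then 2444 and 1755 with 0.1 ng/ml and 10469 and 9094 with 100 ng/ml (log2 change 4.59 ± 0.27, edgeR adjusted p = 6.46e-07). C:97122269 went from 305 and 359 to 2391 and 2925 (4.97 ± 0.52, edgeR adjusted p = 1.38e-05). D:134373802 went from 8295 and 8990 to 28446 and 36004 (4.02 ± 0.31, edgeR adjusted p = 3.28e-06) and took 2.23% and 2.90% of the RNA counts of its dox 100 libraries. At all 3 sites both dox 100 counts exceed both dox 0 counts, in libraries with fewer counts in all. A library total reflects sequencing depth and not the amount of RNA in the cells. Rises of single sites, here and elsewhere, are therefore relative to the other reporters of the library.

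Sites with little RNA at the start also rose in the second domain. C:28483538 had 23 and 44 RNA counts without dox, 283 and 103 with 0.1 ng/ml and 402 and 320 with 100 ng/ml (log2 change 4.41 ± 0.74, edgeR adjusted p = 0.000359). D:30200390 had 8 and 0 RNA counts without dox beside 2886 and 2155 DNA counts, 55 and 113 RNA counts with 0.1 ng/ml, and 142 and 450 with 100 ng/ml. Its fitted log2 change, 8.39 ± 1.27 (edgeR adjusted p = 0.000182), is the largest rise of the chromosome, and with 8 counts at the start its size depends on the prior count of the fit. It ended at a level of 2.12 ± 1.70 (SD, n = 2), under many kept sites that had not risen.

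Strong sites at dox 0 need not rise to stay high. D:26034775 had 775 and 496 RNA counts at dox 100, beside 34 and 36 DNA counts, and its level went from 6.25 to 9.04 with a fitted log2 change of 0.12 ± 0.74 (edgeR adjusted p = 0.902). That sign turned under other scalings, to −0.88 and −1.41. B:86803859 had 4525 and 4645 RNA counts without dox, 15706 and 16673 with 0.1 ng/ml and 2226 and 3964 with 100 ng/ml. It was higher at dox 0.1 (3.73 ± 0.74, edgeR adjusted p = 0.00286) and had no call at dox 100 (1.77 ± 0.72, edgeR adjusted p = 0.0523). The fit with the culture as a replicate block put it past the threshold at 2.01 (edgeR adjusted p = 0.0298), as did DESeq2's Wald test (1.78), the offset fit (2.14) and the fit without dox 100 replicate 2 (2.15). B:51606742 went from 6115 and 7464 RNA counts to 5608 and 7165, called higher (2.53 ± 0.60, edgeR adjusted p = 0.00371), though it missed on library totals (1.23, edgeR adjusted p = 0.0905) and without dox 0 replicate 1 (2.11, edgeR adjusted p = 0.0517). B:20284992 in the second domain had 2594 and 2593, then 2440 and 5175, called higher (2.58 ± 0.57, edgeR adjusted p = 0.00242) and missing on library totals (1.29, edgeR adjusted p = 0.0676) and without dox 100 replicate 2 (1.51, edgeR adjusted p = 0.0597). For the last 2 sites the raw counts at dox 0 and dox 100 overlap. Of the other high sites of the domains, B:4971289 and B:29410639 had no call at dox 100, nor had C:4739913, though without dox 100 replicate 2 the last 2 were lower (−3.27 and −3.92). B:29410639 was also lower with library totals (−2.47). C:25732143 went from 783 and 777 to 0 and 0, at least 193-fold lower (edgeR adjusted p = 0.000163). B:4074935 went from 3707 and 4156 to 395 and 254 (log2 change −1.32 ± 0.49, edgeR adjusted p = 0.0343), a call lost without dox 0 replicate 1 or 2 (edgeR adjusted p = 0.167 and 0.112) and on RNA libraries with the DNA counts as an offset (−1.14, edgeR adjusted p = 0.127).

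**Figure D5:**
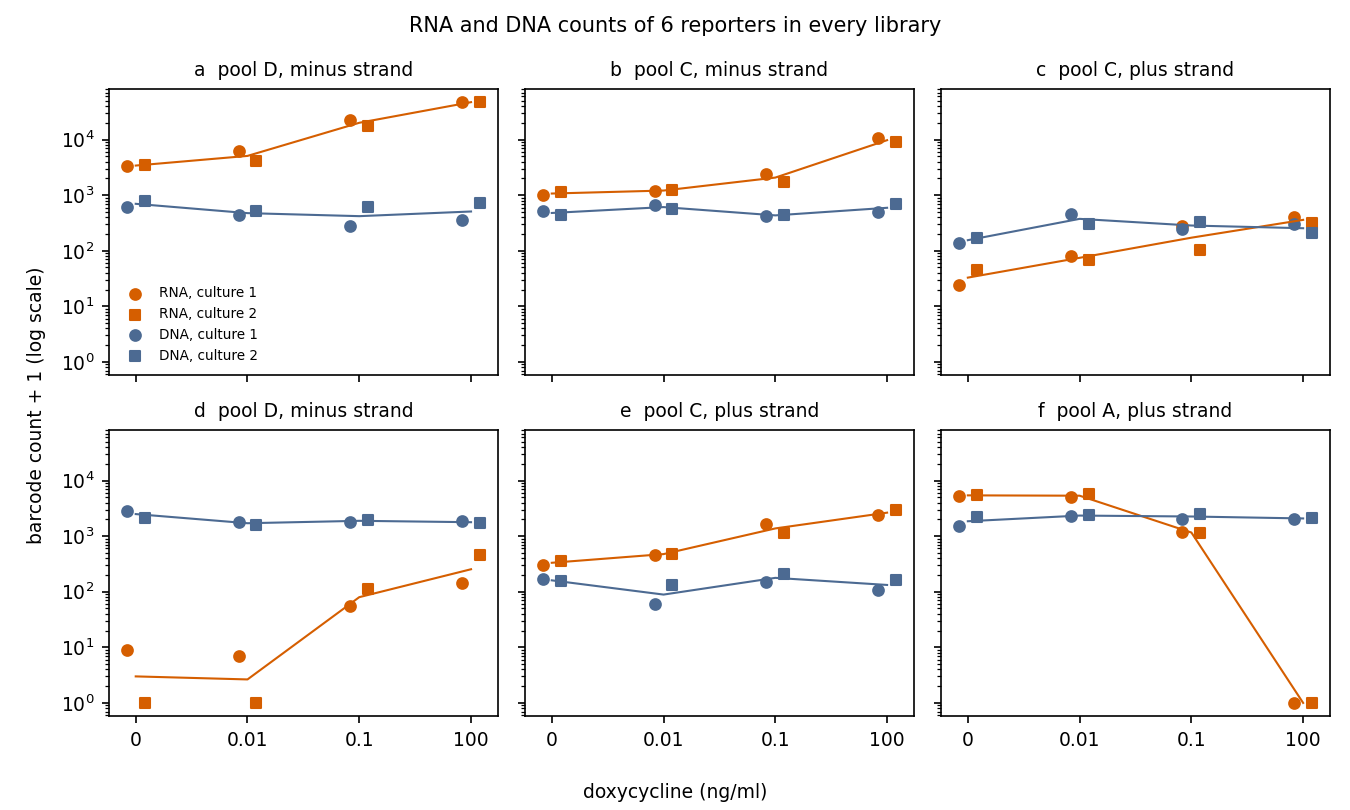
Barcode counts plus 1 (log axis) of 6 sites in all 16 libraries of their pool, RNA in orange and DNA in blue, circles culture 1 and squares culture 2, lines geometric means; a is D:3211834, b C:3530335, c C:28483538, d D:30200390, e C:97122269 and f A:116769840. RNA of a to e, the 5 largest rises, is highest at 100 ng/ml, d starts from 8 and 0 RNA counts, and f has no RNA count at dox 100.

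The 5 largest falls at dox 100 by fitted value ended at 0 and 0 RNA counts. A:116769840 had RNA counts of 5384 and 5446 without dox, 5045 and 5656 with 0.01 ng/ml and 1203 and 1122 with 0.1 ng/ml, with DNA counts of 1527 and 2248 at dox 0 and 2042 and 2121 at dox 100. It was at least 1301-fold lower at dox 100 (edgeR adjusted p = 1.83e-07) and was also lower at dox 0.1 (log2 change −1.26 ± 0.31, edgeR adjusted p = 0.0114). A:29886711 went from 3039 and 3880 RNA counts to 0 and 0, at least 761-fold lower (edgeR adjusted p = 4.82e-07), and C:25039662 from 2844 and 2861 to 0 and 0, at least 643-fold lower (edgeR adjusted p = 2.00e-07). Both lie in the second high domain. C:134249834, at least 642-fold lower (edgeR adjusted p = 4.09e-06), and A:119342131, at least 538-fold lower (edgeR adjusted p = 0.00123), lie outside the domains. A:119342131 had 0 and 74 RNA counts at dox 0.1, and the other 4 had RNA in both libraries at that dose.

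Of the 7 pairs less than 1 kb apart, 2 had the same call at both sites at dox 100. C:87332103 and D:87332260 lie 157 bp apart on the plus strand in different pools. C:87332103 went from 1430 and 1399 RNA counts to 5952 and 4200 (log2 change 3.33 ± 0.47, edgeR adjusted p = 0.00011), and D:87332260 from 2000 and 1993 to 4280 and 3933 (3.84 ± 0.53, edgeR adjusted p = 0.000101). Their levels were 3.30 ± 0.02 and 3.73 ± 0.07 (SD, n = 2) at dox 0 and 9.47 ± 0.45 and 10.43 ± 0.93 (SD, n = 2) at dox 100, differences of 0.43 and 0.97. Both are under the SE of a single level at these doses (0.46 and 1.49), and the sites also differ in pool. B:134249535 and C:134249834 lie 299 bp apart, also on the plus strand, and both were lower. The first went from 1918 and 2556 RNA counts to 28 and 0 (log2 change −4.66 ± 1.36, edgeR adjusted p = 0.0119), and leaving out dox 0 replicate 1 or 2 ended that call (adjusted p of 0.0901 and 0.0865). The second went from 1822 and 2398 to 0 and 0. The next site named further on, D:134373802, rose.

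In the other 5 pairs the calls were unlike or absent. D:150237867 and C:150238455, 588 bp apart, had levels of 1.79 and −1.34 at dox 0 and of −2.09 and 3.03 at dox 100. The first went from 123 and 156 RNA counts to 0 and 0, at least 55-fold lower (edgeR adjusted p = 0.000693), and the second had 114 and 95, then 30 and 278, with no call. C:86353445 and B:86354010, 565 bp apart, had levels of 0.49 and 0.85 at dox 0 and of 4.38 and −0.54 at dox 100, with no call at either. C:74367745 was higher (2.33 ± 0.72, edgeR adjusted p = 0.0149) where C:74366901 had no call. That call was lost on library totals and DESeq2 size factors and without dox 0 replicate 1 or 2 or dox 100 replicate 2, at edgeR adjusted p from 0.0513 to 0.13. C:31625420 was lower (−1.85 ± 0.59, edgeR adjusted p = 0.0169) where B:31624542 had no call, and missed without dox 0 replicate 1 or 2 (edgeR adjusted p = 0.11 and 0.0529). Last, B:102628476 and A:102629233 had no call.

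A second chain, of 8 sites from all 4 pools, spans chr7:86284935-86364367. Its dox 0 levels ran from −1.23 to 3.04 with a median of 0.76, and at dox 100 it held 4 kept sites, 3 with RNA in 1 library and 1 without, with 2 lower and 0 higher. A:86333796 was lower (−2.71 ± 0.97, edgeR adjusted p = 0.0301), from 5066 and 5389 RNA counts to 60 and 578, and missed without dox 0 replicate 1 or 2 (edgeR adjusted p = 0.171 and 0.0759) and with the DNA counts as an offset (edgeR adjusted p = 0.0608). A:86350472 kept 1083 and 2526 RNA counts after 4259 and 4687 at dox 0 (log2 change 0.59 ± 0.41, edgeR adjusted p = 0.236). D:86305426 went from 265 and 230 to 0 and 0, at least 63-fold lower (edgeR adjusted p = 0.00024).

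Over all chromosome 7 pairs of sites in different pools less than 10 kb apart (44 pairs of 77 sites), the Pearson r of their levels was 0.497, 0.503, 0.548 and 0.621 at dox 0, 0.01, 0.1 and 100. Over all reporters it was 0.382, 0.449, 0.611 and 0.59. At 10 to 100 kb it was 0.293 at dox 0 and 0.34 at dox 100 on chromosome 7 (226 pairs), and at 100 kb to 1 Mb 0.142 and 0.0442 (1619 pairs). Within 10 kb, 63.8% of sites next to a kept site were kept themselves, and 41.5% of those next to a site that was not kept; over all reporters these shares were 68.7% and 32%, further apart than on chromosome 7. Sites enter several pairs, so these values are a description with no test.

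At dox 100 a few sites carried a large share of chromosome 7 RNA. The 3 strongest sites of a library made up 15.2% to 25% of its chromosome 7 RNA counts at dox 0 and 34.3% to 75% at dox 100. Chromosome 7 took 6.19% ± 1.01 (SD over 4 pools) of RNA counts at dox 0 and 5.92% ± 2.78 at dox 100, with 5.11% and 5.13% of DNA counts, and 4.93% of reporters. Its RNA share at dox 100 was 2.62% and 2.77% in pool A and 9.13% and 9.84% in pool D, where D:3211834 and D:134373802 stand. At dox 0 pools A and D had stood alike, at 5.38% and 5.32%, and 5.38% and 5.47%. Pool B went from 7.46% and 7.53% to 5.73% and 5.42%, and pool C from 6.5% and 6.48% to 5.76% and 6.09%, so the share fell in 3 pools and rose in 1.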

How the data were processed

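The authors deposited 1 table of read counts per barcode, RNA and DNA in separate count columns per the file headers, with chromosome, position and strand. Bowtie2 2.0 and mm9 are named in the submitters' processing notes. Barcode calling and filters are not given in the sources used here. Positions come from 16 mapping libraries, which enter in no other way, and 0 columns of sample values were left unused.

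The members, domains and lists were chosen with earlier results of these data known. Sites were kept at 10 or more counts in all 8 DNA libraries of their pool. edgeR 4.0.16 (R 4.3.3) fitted 1 quasi-likelihood model per pool to 16 libraries and all reporters (assay, dose and interaction, TMM within assay), Benjamini-Hochberg adjusted per pool, threshold 0.05. RNA libraries are set to a common scale, which hides any change common to all sites. The model was also run on simulated data. No result of that run is given here, and it is not read as a check of the scaling or the calls at the highest dose. Levels, windows and bounds were computed in Python 3.11.15. Reads carry no molecular identifiers, so floors cover counting error only. Replicate numbers pair libraries, since the labels' treatment protocol splits each culture over the doses; differences between cultures correlated across doses by −0.051 to 0.0463 (DNA) and −0.0537 to 0.0414 (RNA).

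Sites were named by rule: the 5 highest and 5 lowest levels at dox 0, the 5 largest falls and rises at dox 100 and the 3 at dox 0.1 that passed and whose level, with 1 added to each count, moved alike in both cultures (a site with 0 counts can meet this through the pool mean, as A:144770516 did), the 10 highest kept sites at dox 100, the 3 extreme sites of each domain, and members of chains of 6 or more sites with gaps up to 50 kb and pairs under 1 kb. Alternatives were other scalings, tests, filters, pseudocounts, windows, the replicate block, and leaving out a pool or a replicate. In the fits, leaving out a replicate removed both its RNA and its DNA library at 1 dose, in every pool.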

Additional observations from a re-analysis of the deposited data

Results flagged for a closer look

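In 25 groups of 4 pool values tested for a value far from the others, 3 were marked, and chance marks about 1 in 20 such groups. The chromosome 7 median level at dox 0 was 0.79 in pool C, apart from 0.43, 0.43 and 0.36 in A, B and D. The median of the first high domain at dox 0 was 4.92 in pool B, which has 2 sites there, apart from 2.24, 1.75 and 2.09 in A, C and D. In the low domain at dox 100, pool A, with 1 site, stood at 4.35, apart from −2.43, −2.17 and −1.36 in B, C and D.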

How the results depend on the processing

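Counts of chromosome 7 calls kept within 1.5 times of those reported in 92 of 108 counts tried. These include the counts at dox 0.01, where 0 was set against 0 in every setting but DESeq2's Wald test. At dox 0.01, DESeq2's Wald test gave 3 calls (1 lower, 2 higher) in place of 0. At dox 0.1, DESeq2 size factors gave 160 lower and 24 higher, library totals 182 and 21, and RNA libraries with the DNA counts as an offset 86 calls, 47 of them lower. Leaving out 1 library at dox 0.1 or 0 gave 85 to 159 calls, 52 to 111 lower and 31 to 53 higher. At dox 100, library totals gave 29 higher. With the replicate block, which pairs cultures, the calls were 81 lower and 50 higher at dox 0.1 and 243 and 56 at dox 100, and among the named sites it changed the call of B:86803859 and no other.

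The median level of chromosome 7 at dox 100, −0.69, became 0.96 when centred on the pool median, which at that dose is a site without RNA, and ran from −1.43 to −0.70 with 1 culture alone. That of the second high domain became 3.89 with that centring and 3.99 with a pseudocount of 0.1. High domains numbered 2 in all settings but 2 Mb windows, which gave 5 high and 5 low. The 5 high ones were chr7:2000001-8000000, 20000001-22000000, 26000001-32000000, 36000001-38000000 and, in the distal part, 132000001-136000000. Low domains numbered 0 at a DNA minimum of 100 and without pool D, 3 without pool B, 2 with 5 or more sites per window, and 1 to 2 with 1 culture alone. The kept share was 21.6% at 100 or more counts and ran from 41.2% to 47.4% with 1 culture alone.

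Of 45 changes of named sites, 27 had the same direction and side of the threshold in every alternative. Signs turned for 6 changes at 5 sites, and 1 of these changes had been called. B:4971289 had −0.34 with DESeq2 size factors, −0.81 with library totals and −0.50 with the offset, and ran from −1.27 to 1.23 without 1 replicate of a dose. D:26034775 had −0.88, −1.41 and −0.04 in the same settings, and ran from −0.90 to 0.57 without 1 replicate of a dose. Without 1 replicate of a dose, C:11698084 ran from −3.52 to 0.12, B:29410639 from −3.27 to 0.37 and A:144770516 from −1.58 to 3.46. The change of A:144770516 at 0.1 ng/ml, which was called, ran from −1.74 to 7.30. Leaving out a replicate of a dose leaves 1 RNA and 1 DNA library per pool at that dose, assumed to vary like the others. Why these values moved was not tested. Depth limits the sites at dox 100, where the median chromosome 7 site had 0 to 24 RNA counts in a library.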
